A study of Saccharomyces cerevisiae with 14 samples.

Results

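Cryptic unstable transcripts (CUTs) are short noncoding RNAs that RNA polymerase II makes from yeast promoters in the divergent direction, from gene ends and from between genes. They were found in cells lacking the nuclear exosome subunit Rrp6, because in wildtype cells the Nrd1-Nab3-Sen1 complex ends their synthesis early, the TRAMP complex adds a short poly(A) tail, and the exosome degrades them. Those that escape to the cytoplasm can meet ribosomes and are then open to nonsense-mediated decay. Stable unannotated transcripts (SUTs) and Xrn1-sensitive unstable transcripts (XUTs) are the neighbouring classes, and the annotated regions of the 3 classes often overlap one another and overlap mRNAs.

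All 779 features that the count tables place in their CUT section were taken, of 21289 features in 15 sections. They were counted in CRAC libraries, a method that joins a tagged protein to its RNA with ultraviolet light in the cell, purifies it and sequences the attached fragments as cDNA. Hel2, a ubiquitin ligase that senses collided ribosomes, and New1, an ATPase related to the elongation factor eEF3, were the proteins studied, the question being where Hel2 and New1 bind RNA and how the loss of New1 alters Hel2 binding. The 14 libraries fall into 7 groups with 2 replicates each, all of the laboratory strain BY4741 (MATa, with deletions of HIS3, LEU2, MET15 and URA3) grown to an OD600 of about 0.5. Hel2-HTP::URA3 cells were sampled with NEW1 intact (wildtype) and with new1Δ::KanMX6, each at 20°C and at 30°C. New1-HTP::URA3 cells were sampled with HEL2 intact at 20°C, and untagged BY4741 cells at 20°C and at 30°C. The methods add uracil to the tryptophan that the labels name as missing from the medium of the colder cultures, and RNase times and library steps also differed with temperature, so that temperature and preparation cannot be told apart. The methods call the replicates biological, and p-values measure the spread between their libraries.

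Features drew between 1382670 and 4109446 sense reads in the 10 tagged libraries and between 1094 and 1954300 in the 4 untagged ones, where a read is counted on each feature that it overlaps. NEW1 drew no read in either Hel2-HTP new1Δ library at 20°C, and 0 and 7 at 30°C, against 105 to 1192 in the wildtype Hel2-HTP libraries. Strain names in the header command lines of Hel2-HTP new1Δ replicate 2 and New1-HTP replicate 2 at 20°C differ from the labels. They name a New1-HTP strain and a New1-HTP strain without HEL2, respectively. The linker barcodes in the same headers match the labels, and the 0 NEW1 reads of the new1Δ library go with its label. The 581 NEW1 reads of New1-HTP replicate 2 go with its label and its header alike. HEL2 drew 143 reads in New1-HTP replicate 2 but 1 read in replicate 1, which is also labelled as carrying HEL2. Hel2-HTP new1Δ replicate 2 at 20°C had 0 HEL2 reads, against 120 to 515 in the other Hel2-HTP libraries, so its HEL2 count does not back the label. Fitted changes of CUT628, CUT496 and CUT826 at 20°C that rest on these libraries are also given without them.

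Sense reads on CUTs were few and were held by a handful of members. The 10 tagged libraries together had 104697 sense reads on 443 CUTs, and the 4 untagged libraries had 4376 on 114 CUTs, 31 of which had none in a tagged library. The other members of the 779, 305 CUTs, were listed for antisense reads only. Among the CUTs with reads in a tagged library the median was 8 reads over all 10, 252 had reads in exactly 1 library, 42 in 5 or more, and 4 (CUT484, CUT496, CUT628 and CUT787) in all 10. A single transcript, CUT628, held 46.6% of the tagged CUT reads, CUT496 held 17.4% and CUT826 held 12.0%, so that 3 of 779 members accounted for 76.0% and the leading 10 for 84.3%.

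**Figure D1:**
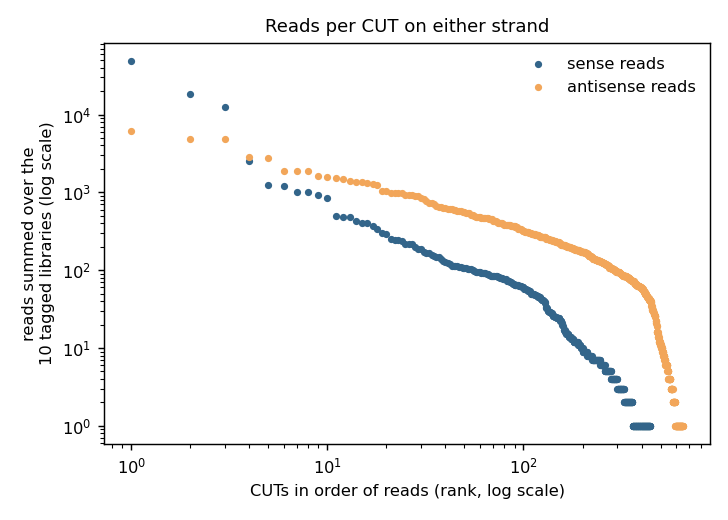
Reads per CUT summed over the 10 tagged libraries (log scale) against the rank of the CUT (log scale), for sense reads (blue) and antisense reads (orange). The 3 leftmost blue points are CUT628, CUT496 and CUT826 with 48791, 18242 and 12513 reads, and from the fourth rank on the antisense points lie above the sense points.

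The abundant CUTs were short. Annotated CUT lengths, which follow from the reads and RPKM values, ran from 105 to 3433 nt with a median of 409 nt, and 9 of the 10 CUTs with the highest mean share of reads were shorter than that median (137 to 545 nt over the 10). Per length, CUT628 (145 nt) had a mean of 18348 RPKM ± 15593 (SD, n = 10 tagged libraries), CUT496 (241 nt) 4409 ± 2848, and CUT826 (545 nt) 1220 ± 1770. CUT484 (193 nt) followed with 728 ± 384 RPKM and CUT413 (201 nt) with 457 ± 467. The libraries of different groups are pooled in these means, and the spreads of neighbours in the order overlap. The deposited tables give no coordinates for CUTs, so neither their sequences nor their positions relative to genes are described here.

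The antisense strand of CUTs was read more often than the CUT strand. In the tagged libraries 133883 reads fell antisense to CUTs, 56.1% of all reads on the 779 regions, and outside the 3 leading CUTs the antisense share was 84.2%. SUTs (87.9%) and XUTs (90.1%) had shares of the same order, against 17.4% for protein-coding features. More antisense than sense reads lay on 559 CUTs. CUT143 had 0 sense and 6074 antisense reads over the tagged libraries, CUT272 had 0 and 4864, and CUT748 had 11 and 4842, so that these regions counted as listed although their own strand was scarcely read. The leading CUTs stood on the other side: CUT628, CUT496, CUT413, CUT894 and CUT061 had no antisense read in any tagged library, and CUT826 had 80 antisense beside 12513 sense reads. CUT484 was read on both strands, with 2504 sense and 1873 antisense reads. Because the distinct cDNA numbers in the tables include antisense reads, they describe the CUT strand only where no antisense read was counted. On such CUTs a cDNA stood for 3.98 to 14.3 reads, depending on the tagged library.

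Counts shared with other annotations bear on what a CUT read means. Of 163 CUTs with at least 10 reads in all and reads in at least 2 libraries, 26 (16.0%) had exactly the same count in all 14 libraries as another feature, 20 of them the same as an XUT. CUT504, for example, had the 144 reads of XUT_4R-298, CUT607 the 122 reads of XUT_7R-262, and CUT025 the 343 reads of an antisense transcript named Unit17. At low counts an exact match can also be coincidence, and its rate among other features was not counted. CUT015, with 12 reads, matched the mRNA BIO5 and SUT396 alike. In 74 (45.4%) the summed difference from another feature was at most 10% of the CUT's reads, which at low counts can also be coincidence, while among the 50 CUTs with reads in 5 or more libraries 5 had such a neighbour. CUT628, CUT496 and CUT826 had none. Only a feature with at least as many reads in every library could hold all reads of a CUT, and outside rRNA and tRNA such features were 2 mRNAs for CUT628 (TDH3 and TEF2, a glycolytic enzyme and an elongation factor), 10 mRNAs for CUT496, and 12 mRNAs and 1 antisense transcript for CUT826. Whether any of them overlaps the CUT, and whether a shorter overlap adds part of its reads, cannot be read from the tables.

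The share of all feature reads that fell on CUTs was below 1% in every library. It was 0.685% and 0.455% in Hel2-HTP wildtype cells at 20°C, 0.302% and 0.385% in the same strain at 30°C, 0.299% and 0.213% in Hel2-HTP new1Δ cells at 20°C, and 0.541% and 0.388% in new1Δ cells at 30°C. New1-HTP libraries gave 0.569% and 0.251%. Untagged cells at 30°C gave 0.208% and 0.282%, below each of the 4 tagged libraries of that temperature. Untagged replicate 2 at 30°C had 302 CUT reads of 106914 feature reads. At 20°C the untagged libraries were shallow: replicate 1 had 3 CUT reads of 1094, a share of 0.274% with a 95% Wilson interval of 0.0933% to 0.803%, and replicate 2 had 0 of 103436, which allows up to 0.0029%. Such intervals treat reads as independent counts and leave out the spread between replicates. Since the reads were not collapsed to molecules, the intervals can be too narrow.

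**Figure D2:**
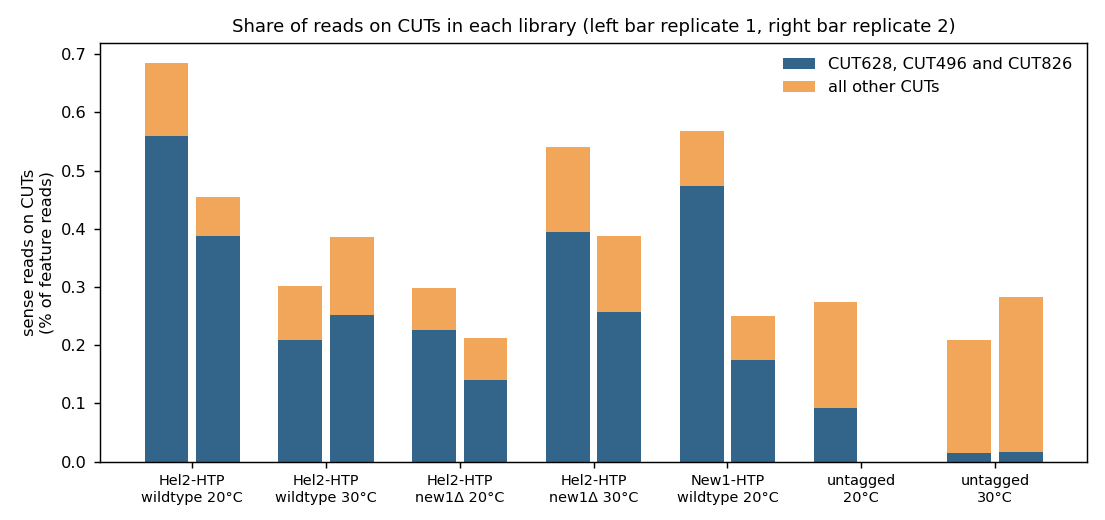
Percent of feature reads on CUTs in each of the 14 libraries, divided into CUT628, CUT496 and CUT826 together (blue) and the other CUTs (orange), with replicate 1 and replicate 2 of a group side by side. Blue reaches 0.140% to 0.559% in tagged libraries and 0.0158% and 0.0168% in the untagged libraries at 30°C, where orange reaches 0.192% and 0.266%.

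At 30°C the 3 leading CUTs made up 65.5% to 72.7% of the CUT reads of tagged libraries and 7.59% and 5.96% of those of untagged libraries. The mean share at 30°C was 0.404% ± 0.0997 (SD, n = 4) in tagged and 0.245% ± 0.0524 (SD, n = 2) in untagged libraries (two-sided exact permutation test, p = 0.133, adjusted p = 0.500 over the 6 comparisons of shares, smallest possible p 0.0667). Without CUT628, CUT496 and CUT826 the means were 0.126% and 0.229%, values that are a description with no test, since the 3 were picked for their reads in tagged libraries and leaving them out lowers the tagged share by construction. SUTs and XUTs, from which no member was removed, had larger shares in the untagged libraries at 30°C, with means of 0.460% against 0.125% and 0.627% against 0.191%. At 20°C the CUT share was 0.412% ± 0.189 (SD, n = 6) in tagged and 0.137% ± 0.194 (SD, n = 2) in untagged libraries (exact permutation p = 0.214, adjusted p = 0.500), and the untagged mean rests on a library with 3 CUT reads.

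CUT628 was higher in tagged than in untagged cells at both temperatures. In untagged cells at 30°C it had 66 and 9 reads, or 33.8 and 84.2 RPM, the reads that fall on a feature per 1000000 feature reads of the library. At 30°C 4392 and 2474 reads of wildtype Hel2-HTP libraries and 1522 and 266 of new1Δ libraries lay on it, which is 1335, 1715, 370.4 and 189.9 RPM, all above the untagged values. At 20°C no read fell on CUT628 in untagged cells, whereas Hel2-HTP wildtype libraries had 9383 and 14124 reads, new1Δ libraries 2094 and 575, and New1-HTP libraries 9025 and 4936. Relative to the floor of 3 reads over both untagged libraries, CUT628 was at least 14.5-fold higher in the lowest tagged library at 20°C, new1Δ replicate 2, and at least 93.8-fold higher in the pooled tagged libraries. In untagged replicate 2, which holds most untagged reads at 20°C, 92.2% of feature reads lay on rRNA and 1.83% on protein-coding features. Tagged libraries at 20°C had 24.3% to 38.7% on protein-coding features. Over all features tested the median log2 fold change at 20°C was 5.40, so high values there were not particular to CUT628. At 30°C the fitted log2 fold change of CUT628 was 4.29 ± 0.84 (SE; edgeR quasi-likelihood test, adjusted p = 0.0026).

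CUT496 had reads in untagged cells too. It drew 243 and 9 reads there at 30°C, or 124.3 and 84.2 RPM, and was the CUT with the most untagged reads of all. The Hel2-HTP libraries at 30°C had 532.8 and 453.4 RPM in wildtype and 1657 and 1073 in new1Δ cells, again without overlap with the untagged pair, and the fitted log2 fold change was 3.49 ± 0.93 (edgeR, adjusted p = 0.031). That call was lost without either untagged library at 30°C (adjusted p = 0.072 and 0.17). At 20°C a single read fell on it in 104530 untagged feature reads, and the pooled tagged share was 52.8 times that, with a 95% counting interval of 9.47 to 2084. That read lies in replicate 1, where 1 of 1094 feature reads is 914 RPM, within the 171.7 to 1037 RPM of the tagged libraries, and the ratio of the group means of RPM was 1.29. Without untagged replicate 2 the fitted log2 fold change was 1.57 and no longer called (edgeR, adjusted p = 1.0). The call at 20°C was also lost without new1Δ replicate 2 (adjusted p = 0.056) and without New1-HTP replicate 1 (adjusted p = 0.076). CUT826 was listed with 0 reads in all 4 untagged libraries. In Hel2-HTP cells at 30°C it had 710, 511, 7847 and 1822 reads, all above the floor of 3 reads over the untagged pair. CUT826 passed the filter on low counts through tagged libraries only and was named for its reads there. Its edgeR call against untagged cells therefore adds no support. The lowest library, wildtype replicate 1, was at least 148-fold above that floor, and the pooled libraries at least 730-fold, or 341-fold without new1Δ replicate 1, which holds most of the reads.

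**Figure D3:**
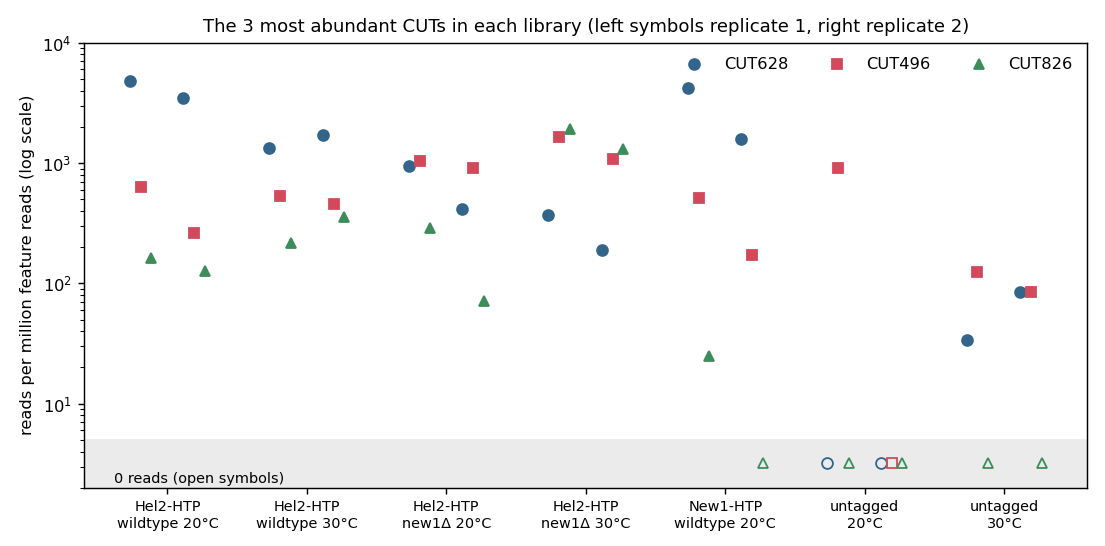
RPM, on a log scale, of CUT628 (circles), CUT496 (squares) and CUT826 (triangles) in each library, with open symbols in the grey band for 0 reads. CUT628 is the highest of the 3 in wildtype Hel2-HTP and New1-HTP libraries and the lowest of the 3 in new1Δ libraries at 30°C; the single square for untagged cells at 20°C stands for 1 read.

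Of the CUTs that passed the filter on low counts, few were called against untagged cells. At 30°C 3 of 83 CUTs were higher in tagged cells (CUT628, CUT496 and CUT826) and none lower, while 2.33% of all 7205 features were called. These 3 had been named for their reads in tagged libraries, which favours such calls. At 20°C 2 of 83 were higher (CUT628 and CUT496) and 3.69% of all features were called, 3.39% higher and 0.305% lower. The 3.61% and 2.41% of tested CUTs that were called lay near these backgrounds. The median log2 fold change was 0.81 for CUTs and 1.18 for all features at 30°C, and 2.70 and 5.40 at 20°C. With size factors from the 40 features that had reads in all 14 libraries, the median of all features at 30°C became −1.20, none of the 3 CUTs was called, and CUT628 kept a log2 fold change of 1.68 and CUT496 one of 1.02, both above 0. Beside CUT496, the CUTs with most reads in untagged cells were CUT894 (148 reads) and CUT504 (135 reads). CUT894 had 145 and 3 reads in untagged cells at 30°C and between 0 and 299 in tagged libraries, and CUT504 had 133 and 2 against at most 7, with neither called (adjusted p = 1.0 and 0.62).

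Loss of New1 went with fewer Hel2-HTP reads on CUT628 at both temperatures. At 20°C the counts were 9383 and 14124 in wildtype against 2094 and 575 in new1Δ cells, or 4143 ± 926 against 679 ± 372 RPM (SD, n = 2 each), and neither new1Δ library reached a wildtype one. The log2 fold change was −2.31 ± 0.39 (edgeR with the replicate pair in the model, adjusted p = 0.0205), while the median over all features was −0.64 and over mRNAs −0.996. Of 59 CUTs tested at 20°C this was the only one called, against 0.583% of all 6350 features called and 0.22% called lower. The call was lost without the replicate block (log2 fold change −2.22, adjusted p = 0.076) and when any 1 of the 4 libraries was left out, which with pairs in the model leaves 1 pair (−2.93 to −1.85). Without new1Δ replicate 2, whose header names another strain, the value was −1.85 (adjusted p = 0.51). At 30°C CUT628 was at 1525 ± 269 RPM in wildtype and 280.1 ± 128 in new1Δ cells, with counts of 4392 and 2474 against 1522 and 266. Its log2 fold change of −2.41 ± 0.40 stayed just outside the threshold (edgeR, adjusted p = 0.057), as no CUT of 59 was called there and 0.0945% of all features were. The difference of the 20°C and 30°C changes was 0.11 ± 0.53 (adjusted p = 1.0), and this test called none of the 59 CUTs and 0.063% of all features.

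CUT496 had more Hel2-HTP RPM in new1Δ than in wildtype cells in each of the 4 pairs, though below the threshold. At 20°C the values were 631 and 263.8 in wildtype against 1037 and 917 in new1Δ cells, a log2 fold change of 1.66 ± 0.36 (edgeR, adjusted p = 0.10). Without new1Δ replicate 2 it was 1.22 (adjusted p = 0.51). At 30°C they were 532.8 and 453.4 against 1657 and 1073, a log2 fold change of 1.54 ± 0.36 (adjusted p = 0.45). The groups did not overlap at either temperature, but the share of all features without overlap was not counted. Even without overlap, an exact permutation test of 2 against 2 libraries cannot go below p = 0.33. At an unadjusted p under 0.05, 5 CUTs at 20°C and 3 at 30°C would have passed, CUT628 and CUT496 in both. The call for CUT496 at 20°C was made in 5 of the alternative settings, DESeq2 among them (log2 fold change 1.86, adjusted p = 0.0014).

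CUT826 had more RPM in new1Δ cells in both pairs at 30°C, and its 20°C pairs disagreed. At 30°C its 710 and 511 wildtype reads stood against 7847 and 1822 in new1Δ cells, or 285 ± 97.9 against 1605 ± 431 RPM, a log2 fold change of 2.61 ± 0.54 (edgeR, adjusted p = 0.19). At 20°C the counts were 318 and 516 against 636 and 99, with a log2 ratio of 0.82 in pair 1 and −0.83 in pair 2. The fitted log2 fold change was 0.40 ± 0.52 (edgeR, adjusted p = 0.95), and 1.32 without new1Δ replicate 2. The test of the difference between temperatures gave −2.21 ± 0.73 with an unadjusted p of 0.0115 and an adjusted p of 1.0 over all features. CUT484 had lower new1Δ values in each pair, 261 and 323 wildtype reads against 73 and 33 at 20°C, then 500 and 226 against 422 and 87 at 30°C, and its log2 fold changes of −1.48 ± 1.01 and −0.85 ± 1.00 did not pass the test (adjusted p = 0.95 and 1.0).

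**Figure D4:**
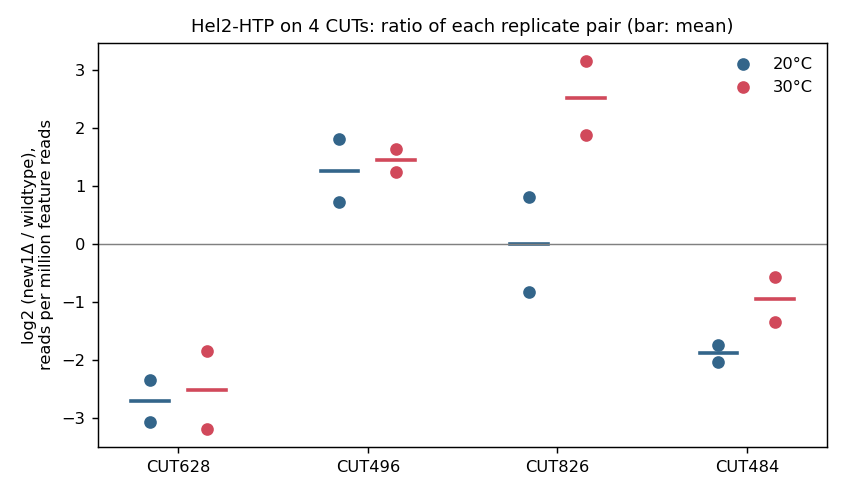
Log2 ratio of RPM, new1Δ over wildtype, for each Hel2-HTP replicate pair at 20°C (blue) and 30°C (red), with the mean of the 2 pairs as a bar. CUT628 and CUT484 lie below 0 and CUT496 above 0 in all 4 pairs, and CUT826 lies on both sides of 0 at 20°C and above it at 30°C.

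A pair of scarcer CUTs, picked out after their values were seen, had reads almost only in new1Δ cells. The share of such features over all sections was not counted, and the reverse pattern also occurred. At 20°C CUT894 had 155 to 299 reads in wildtype Hel2-HTP libraries and none in either new1Δ library (edgeR, adjusted p = 0.72). CUT648 (153 nt) had 44 and 54 reads in the colder new1Δ libraries and 220 and 108 in the warmer ones. In wildtype Hel2-HTP libraries it had 0 and 0 at 20°C, 0 and 6 at 30°C, and New1-HTP and untagged libraries had none. CUT131 (889 nt) had 68 and 102 reads in new1Δ cells at 20°C, 36 and 14 there at 30°C, and 0 in all other libraries. Neither passed the test at 20°C (edgeR, adjusted p = 0.84 and 0.95) or at 30°C (adjusted p = 1.0 for both). CUT061 (241 nt), which drew 707 and 183 reads in new1Δ cells at 30°C against 142 and 5 in wildtype cells, had 117 and 0 at 20°C against 0 and 0, and it was likewise not called (adjusted p = 1.0 and 0.62).

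Summed over all CUTs, the share of reads was lower in new1Δ than in wildtype cells in both pairs at 20°C, with means of 0.256% ± 0.0606 against 0.570% ± 0.163 (SD, n = 2). At 30°C the means were 0.465% ± 0.108 and 0.343% ± 0.0588, and new1Δ was higher by 0.239 percentage points in pair 1 and by 0.00335 in pair 2. Each exact permutation test gave p = 0.33 (adjusted p = 0.500), the smallest value that 2 against 2 libraries allow. CUT628 alone made up 70.0% and 76.7% of CUT reads in wildtype cells at 20°C and 31.5% and 19.5% in new1Δ cells, and at 30°C CUT826 made up 7.15% and 9.20% of CUT reads in wildtype and 35.3% and 33.5% in new1Δ cells. Without the 3 leading CUTs the pairs disagreed at both temperatures. The remaining share at 20°C was 0.0724% in new1Δ against 0.126% in wildtype cells in pair 1 and 0.0728% against 0.0669% in pair 2, and at 30°C it was 0.147% against 0.0935% in pair 1 and 0.132% against 0.133% in pair 2.

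CUT628 was the leading CUT with New1-HTP as well as with Hel2-HTP in wildtype cells at 20°C. CUT628 had 4188 and 1573 RPM with New1-HTP and 4798 and 3489 with Hel2-HTP, a log2 fold change of −0.58 ± 0.49 (edgeR, adjusted p = 1.0). The value was −1.33 without New1-HTP replicate 1, the library with 1 HEL2 read, and −0.09 without replicate 2, whose header names another strain. CUT496 had 514.2 and 171.7 against 631 and 263.8 RPM, a log2 fold change of −0.41 ± 0.56 (adjusted p = 1.0), with −1.27 and 0.13 without the same libraries. CUT826 was the exception in level, with 54 and 0 reads in New1-HTP libraries against 318 and 516, and 79 antisense reads in New1-HTP replicate 2. Its log2 fold change of −3.65 ± 1.85 did not pass the test (adjusted p = 0.93), and without New1-HTP replicate 2 it was −2.64, whereas without replicate 1 the group had no read on CUT826. None of 30 CUTs was called, with 1 at an unadjusted p under 0.05, against 0.0387% of 5172 features, and the alternatives, DESeq2 included, also called none. The CUT shares of 0.410% ± 0.225 and 0.570% ± 0.163 (SD, n = 2) overlapped (exact permutation p = 0.667).

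Between 20°C and 30°C no CUT of 59 was called in wildtype Hel2-HTP cells, and 0.189% of all 6350 features were, 0.157% as lower at 20°C. CUT628 was at 4143 ± 926 RPM at 20°C and 1525 ± 269 at 30°C (SD, n = 2 each; log2 fold change 0.91 ± 0.44, edgeR, adjusted p = 0.86). CUT826 ran the other way, with 145 ± 24.8 against 285 ± 97.9 (log2 fold change −1.52 ± 0.59, adjusted p = 0.86), and 3 CUTs had an unadjusted p under 0.05. Over both strains, 4 libraries at 20°C and 4 at 30°C, the mean CUT shares were 0.413% ± 0.207 and 0.404% ± 0.0997 (exact permutation p = 1.0). Without the 3 leading CUTs the 20°C mean was 0.0845% and the 30°C mean 0.126%.

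Below the leading members, replicates agreed poorly. Of CUTs with 30 or more reads in 1 replicate of a tagged group, between 15.4% and 69.2% had 3 or fewer in the other, compared with 6.18% to 46.5% of mRNAs. From replicate 2 to replicate 1 at 30°C the values were 15.4% of CUTs against 16.5% of mRNAs in new1Δ cells. In wildtype cells they were 20.0% against 23.7%. For all other tagged libraries the CUT value was the higher, and CUTs and mRNAs were not matched for reads. CUT413 had 229 and 33 reads in Hel2-HTP wildtype libraries at 20°C and 2 and 191 in new1Δ libraries at 30°C. CUT787 had 251 and 70 reads in wildtype cells at 20°C, then 2 and 111 at 30°C, CUT452 had 283 and 0 at 20°C, and CUT544 had 26 and 134.

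The mRNAs of the factors that end and degrade CUTs, a list of 26, showed no called change. They drew between 59 (UPF3) and 3739 (XRN1) reads over the 10 tagged libraries. Of those tested, 24 in the Hel2-HTP comparisons, 20 in that of New1-HTP with Hel2-HTP and 25 against untagged cells, none passed the threshold in either direction. Between 0.0387% and 3.69% of all features were called in these comparisons, so a list of this size would hold few calls or none at the background rate. At 20°C the mRNA of Nrd1 had 84 and 127 reads with Hel2-HTP in wildtype, 94 and 1 in new1Δ cells, and that of the 5′ exonuclease Xrn1 had reads in all 10 tagged libraries. For the list the median log2 fold change with loss of New1 was −1.23 at 20°C and 0.13 at 30°C, beside −0.996 and −0.0095 over all mRNAs.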

How the data were processed

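CRAC libraries of BY4741 cells were sequenced from 7 groups of 2. Per the file headers and the study's methods, alignments came from novoalign, and the authors obtained the deposited count per feature with pyReadCounters, version 1.4.2 for the 30°C and 1.4.4 for the 20°C libraries, from an Ensembl annotation to which untranslated regions, CUTs, SUTs, XUTs and antisense transcripts had been added. The counts are uncollapsed sense and antisense reads per feature, without normalization. A read is counted on each feature that it overlaps, and the sum over features exceeds the mapped reads. A file lists a feature only if it has a read. The RPKM values deposited by the authors served to recover feature lengths and for levels per length.

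Tests ran over features of all sections in edgeR 4.0.16 under R 4.3.3 (TMM, filterByExpr, quasi-likelihood F-test, Benjamini-Hochberg, adjusted p of 0.05). The 8 Hel2-HTP libraries entered 1 fit with the replicate pair within each temperature for the strain comparisons and 1 without pairs for temperature, the 6 tagged libraries at 20°C another, and all 14 libraries that against untagged cells. The fits of the 6 and of the 14 libraries left the pairs out, as did the permutation tests. Against untagged cells no alternative with pairs was run. A fitted fold change against groups at 0 is not used, and a count of 0 allows 3 reads. Shares were compared with exact permutation tests in scipy 1.17.1 and given Wilson intervals at 95%. Alternatives included DESeq2 1.42.0. The fits were also run on simulated reads, with a capped spread, changes only in features above the median level and no filter on low counts. These settings differ from those of most CUTs, and no conclusion on CUTs is drawn from them. Other steps used pandas 2.3.3 and numpy 2.4.6 in Python 3.11.15, and matplotlib 3.10.9 drew the plots.

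The pairs come from the study's methods, which give each replicate of a temperature its own sequencing run. As a check, the replicate differences of wildtype and of new1Δ libraries had a correlation of 0.036 (20°C) and 0.076 (30°C) across 6350 features, which are not independent replicates. Members and gene lists were chosen with earlier results of these data known. The CUTs named are the 10 with the highest mean share in tagged libraries, those called in a comparison, and the 3 with most untagged reads; any others were chosen after their values were seen.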

Additional observations from a re-analysis of the deposited data

Results flagged for a closer look

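The share of feature reads on CUTs was lower in new1Δ than in wildtype cells in both pairs at 20°C and higher in both pairs at 30°C, although in pair 2 at 30°C by very little. At 20°C new1Δ minus wildtype was −0.386 percentage points in pair 1 and −0.242 in pair 2, with a mean of −0.314. At 30°C it was 0.239 in pair 1 and 0.00335 in pair 2, with a mean of 0.121. That of pair 2 at 30°C changed sign with the measure: new1Δ was below wildtype with mapped reads as the denominator (0.581% against 0.588%), without rRNA and tRNA (1.20% against 1.31%), with cDNAs of CUTs that had no antisense reads (0.144% against 0.206%) and without CUT628, CUT496 and CUT826 (0.132% against 0.133%). Whether the 2 temperatures differ in this was not tested. Library preparation differed between the temperatures as well, and its part in the result cannot be told apart from that of temperature.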

How the results depend on the processing

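The number of CUTs called depended on the setting, while CUT628 was lower in new1Δ cells and CUT628 and CUT496 were higher in tagged cells in every alternative run. Both were named for their share of reads in tagged libraries, which favours higher values there, so this is a description only. With DESeq2 in place of edgeR, 6 CUTs were called between new1Δ and wildtype cells at 20°C in place of 1, 3 in place of 0 at 30°C, 2 in place of 0 between temperatures and 1 in place of 3 against untagged cells at 30°C. With DESeq2 size factors in edgeR, the counts were 1 for new1Δ at 30°C, and 0 at 30°C and 1 at 20°C against untagged cells. Without the filter on low counts they were 2 and 2 for new1Δ at 20°C and 30°C, 1 between temperatures and 1 against untagged cells at 20°C. With at least 10 reads in every library, 2 CUTs were called for new1Δ at 20°C, and no CUT was left to test against untagged cells. With cDNAs, which include antisense reads, the counts were 3 and 2 for new1Δ at 20°C and 30°C, 7 against untagged cells at 30°C and 1 at 20°C. With only the libraries compared, they were 2 for new1Δ at 20°C and 1 against untagged cells at 20°C. Without the replicate block no CUT was called for new1Δ at 20°C, and with a replicate block none for New1-HTP against Hel2-HTP; the block changed no other call. CUTs whose reads lay near those of another feature could be left out without a change in any count of CUTs called, an alternative chosen after seeing the data.

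Leaving out single libraries gave 0 to 0 CUTs for new1Δ at 20°C, 1 to 2 at 30°C, 0 to 0 for New1-HTP against Hel2-HTP and between temperatures, and 2 to 3 at 30°C and 1 to 2 at 20°C against untagged cells. The second call at 20°C, CUT496, was lost without Hel2-HTP wildtype replicate 1, either new1Δ library, New1-HTP replicate 1 or untagged replicate 2. The log2 fold change of CUT826 for new1Δ at 20°C then ran from −0.69 to 1.32 and that of CUT496 for New1-HTP against Hel2-HTP from −1.27 to 0.15, neither called. Without New1-HTP replicate 1, CUT826 was compared with a lone library at 0.

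Differences in CUT share, in percentage points, ran over single libraries left out from −0.429 to −0.199 for new1Δ at 20°C, 0.045 to 0.198 at 30°C, −0.319 to −0.00143 for New1-HTP against Hel2-HTP, −0.0818 to 0.0756 between temperatures, and 0.113 to 0.196 at 30°C and 0.138 to 0.412 at 20°C against untagged cells. With cDNAs the difference was 0.0298 for New1-HTP against Hel2-HTP, −0.136 between temperatures and −0.192 against untagged cells at 20°C, each with the opposite sign. Between temperatures the main difference of 0.0089 also turned to −0.248 without rRNA and tRNA in the denominator, and, in alternatives chosen after seeing the data, to −0.0264 with mapped reads as the denominator, −0.0442 with cDNAs of CUTs that had no antisense reads, and −0.0419 without CUT628, CUT496 and CUT826. Without these 3 CUTs the differences from untagged cells were −0.103 at 30°C and −0.00636 at 20°C. The cause of these changes was not tested, apart from the fewer members and samples that some settings leave. Depth limits the comparison with untagged cells at 20°C, whose libraries had 1094 and 103436 feature reads. It also limits that at 30°C, where untagged replicate 2 had 106914 feature reads and replicate 1 had 1954300.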

Other observations

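CUT551 (761 nt), which was chosen after its values were seen, was read on both strands. In the New1-HTP libraries it had 98 and 0 sense reads and 269 and 391 antisense reads, in Hel2-HTP wildtype libraries at 20°C 16 and 74 sense and 66 and 74 antisense reads, and in untagged cells at 30°C 0 sense reads in both libraries and 104 and 4 antisense reads.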
